A study of Homo sapiens with 6 samples.

Results

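Transcripts of 10 negative regulators of mTORC1 and of cap-dependent translation were examined in HEK293 cells, an established line from human embryonic kidney, after 12 h with 100 µM minocycline or with its DMSO vehicle, without heat shock. The 10 genes were DDIT4, DDIT4L, SESN1, SESN2, SESN3, EIF4EBP1, EIF4EBP2, DEPTOR, TSC1 and TSC2. They were chosen by symbol, with earlier results of these data known, and each matched 1 of the 57820 rows of the count table. Both groups were of the same stock (ATCC), with no genetic change named in the labels, and held 3 libraries each, described as biological replicates and numbered by batch. The comparison addresses how transcript abundance in total RNA differed after minocycline, a tetracycline antibiotic.

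mTORC1 is a kinase complex at the lysosome that promotes protein synthesis when growth factors, amino acids and energy are sufficient. The TSC1 and TSC2 proteins form a complex that switches off Rheb, the activator of mTORC1, and REDD1, the product of DDIT4, acts through that complex under stress. Sestrins restrain the amino acid branch of the pathway, DEPTOR binds mTOR itself, and the 4E-BPs hold the cap-binding protein eIF4E until mTORC1 phosphorylates them. The stress factor ATF4 is known to induce several of these genes.

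Total counts were 17303180 to 17835756 per library. The share of counts from ribosomal protein genes was 7.33%, 10.9% and 12.2% across the controls (in the order of their numbers, as throughout) and 8.26%, 7.26% and 10.7% across the minocycline libraries. Control replicate 1 thus resembled minocycline replicate 2 rather than the other controls, and the same 2 libraries lay together at one end of the first principal component, which held 52.9% of the variance. Of 7 marker genes expected in HEK293 cells, 6 matched and all 6 exceeded 1 CPM (counts scaled by library size and TMM factor) on average. Of 10 markers of blood, fibroblasts, hepatocytes and endothelium, 9 matched and 1, COL3A1, exceeded 1 CPM, and the summed level of the 9 was 2.06 to 3.34 CPM in control and 1.74 to 2.74 CPM in minocycline libraries.

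The DNA upstream of 2 members is shown first, picked because their libraries separated by treatment. The ATF4 protein binds DNA as a dimer with C/EBP factors at an element whose core reads TGATGNAA. Whether ATF4 acted on these genes here was not tested. Both strands of the 2000 bases upstream of the annotated start were searched in GRCh37. The start was that of the canonical transcript, or of the gene where none was marked, as for DDIT4. DDIT4 held 4 matches and SESN2 held 1. Of 20174 protein-coding genes, 25% held at least 1 match in this window, and 8 genes (0.0397%), DDIT4 among them, held 4 or more. That cutoff was the count of DDIT4 itself, so the share is a description and no test. Among the other members TSC1 and TSC2 held 1 match each, at -1150 and -110 bases from the start. The remaining 6, EIF4EBP1 among them, held none in this window, which leaves out the genes themselves. Each match of DDIT4 and SESN2 is printed below 5′ to 3′ on the strand of the gene, with 11 bases on either side. Capitals mark the core on either strand. Before each match stand its distance in bases from the start and the position of the core.

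DDIT4 -1169, chr10:74032509-74032516: ccctgggcatcTGATGTAAgtttggctccc
DDIT4 -1148, chr10:74032530-74032537: ttggctccctcTTCCATCAgggtcctcctg
DDIT4 -1004, chr10:74032674-74032681: ccccgcctgaaTGATGAAAcacgggatggc
DDIT4 -942, chr10:74032736-74032743: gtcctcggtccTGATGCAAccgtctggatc
SESN2 -296, chr1:28585733-28585740: gtgaagtccctTTTCATCAcgcaaccctaa

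The element is a description of the sequence, and binding was not measured. The 250 bases directly before the RefSeq start of DDIT4 and of SESN2 held no TGATGNAA core. In these promoters, capitals mark ACGTG (the core of the hypoxia response element), CCAAT and the GC box GGGCGG, each on either strand, and no marked motif overlaps another.

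DDIT4 promoter, GRCh38.p14, chr10:72273674-72273923, plus strand: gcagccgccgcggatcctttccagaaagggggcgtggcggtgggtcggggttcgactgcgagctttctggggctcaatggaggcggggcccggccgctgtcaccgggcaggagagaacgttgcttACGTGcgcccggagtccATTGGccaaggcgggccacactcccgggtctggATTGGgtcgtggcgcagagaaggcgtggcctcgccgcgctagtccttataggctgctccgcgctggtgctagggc
SESN2 promoter, GRCh38.p14, chr1:28259268-28259517, plus strand: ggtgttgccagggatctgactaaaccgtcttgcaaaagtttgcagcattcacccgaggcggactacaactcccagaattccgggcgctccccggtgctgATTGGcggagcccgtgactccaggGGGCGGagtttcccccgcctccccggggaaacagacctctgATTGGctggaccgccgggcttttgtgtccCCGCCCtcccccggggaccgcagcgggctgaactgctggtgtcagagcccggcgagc

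Over the RefSeq window of 250 bases before to 50 after the start, DDIT4 held 1 ACGTG, which 21.4% of 35116 promoters hold, and SESN2 held none. Each of the 2 genes held 2 CCAAT motifs, found in 34.6% of promoters, and SESN2 held 2 GC boxes, found in 45%. None of the other 6 members in the RefSeq table held a CCAAT motif. TSC2 held 2 ACGTG and 1 TGATGNAA in this window, and GC boxes were also found in SESN1 (8), DDIT4L (3), EIF4EBP2 (2), TSC1 (2) and TSC2 (1). EIF4EBP1 and DEPTOR were not analysed in this window.

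DDIT4, which encodes the stress-induced mTORC1 inhibitor REDD1, was the single member that rose past the threshold. It stood at 29.1, 41.1 and 51.7 CPM in the controls and at 162, 124 and 142 CPM with minocycline. The groups were far apart, with the lowest minocycline library at over 2 times the highest control. The mean went from 40.7 ± 11.3 to 143 ± 19.0 CPM (SD, n = 3 per group), a fold of 3.51 and a log2 fold change of 1.81 ± 0.21 (SE; edgeR quasi-likelihood test, Benjamini-Hochberg adjusted p = 0.0208). Over all 17225 genes tested, 9 genes (0.0522%) passed in the higher direction and 0 in the lower, where DESeq2 gave 3 and limma-voom 0, and 809 had an unadjusted p under 0.05. DDIT4 had the 17th largest log2 fold change of all genes tested. The call was lost when control replicate 2, minocycline replicate 1 or minocycline replicate 3 was left out (adjusted p = 0.137, 0.187 and 0.223), with log2 fold changes of 1.82, 1.71 and 1.81.

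**Figure D1:**
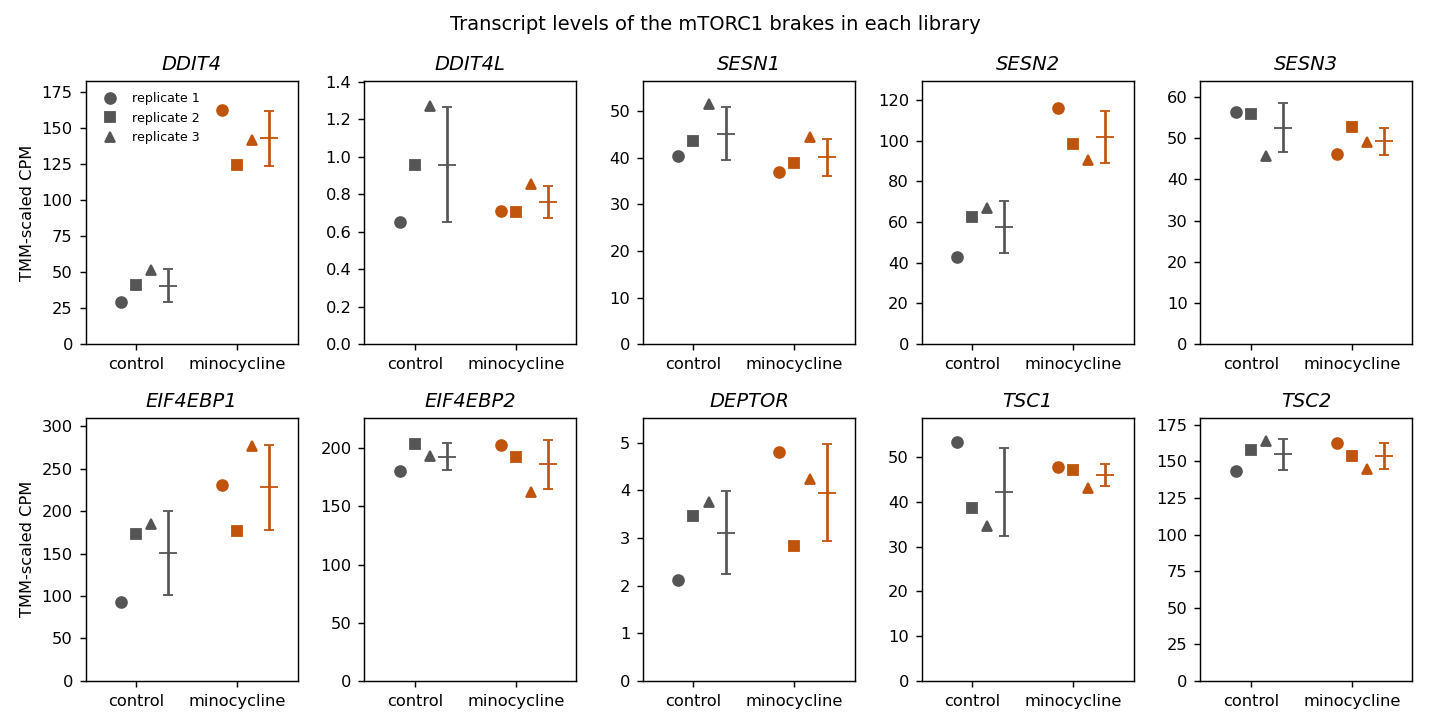
TMM-scaled CPM (vertical axes from 0) of each of the 10 members in the 3 control and 3 minocycline libraries, with the mean and SD beside the points. The groups stand apart in DDIT4 (29.1 to 51.7 against 124 to 162 CPM) and SESN2 (42.9 to 66.7 against 90.6 to 116 CPM) and overlap in the other 8 panels.

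DDIT4L, the paralog of DDIT4 whose product REDD2 also inhibits mTORC1, was barely present. Its raw counts were 12, 16 and 21 in the controls and 13, 13 and 15 with minocycline, so the 2 groups overlapped. Its log2 fold change was -0.33 ± 0.37 (edgeR adjusted p = 0.846).

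SESN2 was the one sestrin whose libraries separated by treatment. The sestrins are stress-induced proteins, and Sestrin2 also serves as a leucine sensor that binds the GATOR2 complex. SESN2 stood at 42.9, 62.6 and 66.7 CPM in the controls and at 116, 98.5 and 90.6 CPM with minocycline. Every minocycline library lay above every control, an arrangement that 5.74% of all genes tested showed, with 3.56% showing the opposite one. Of the 10 members 2 had this arrangement and none the opposite. The mean went from 57.4 ± 12.7 to 102 ± 13.0 CPM (SD, n = 3 per group), with a log2 fold change of 0.83 ± 0.18 that did not pass over all genes (edgeR adjusted p = 0.439). SESN2 passed in 4 of 14 alternative settings, which also passed more of all genes: with DESeq2 (0.14% of genes tested passed), with no filter on low counts (0.28%), with a surrogate variable, a difference between libraries estimated from the counts (0.528%), and without control replicate 1 (17.9%). Without control replicate 1 its log2 fold change was 0.65 (edgeR adjusted p = 0.00523).

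SESN1, a stress-responsive member of the family, stood at 40.3, 43.6 and 51.4 CPM in the controls and at 36.9, 38.9 and 44.5 CPM with minocycline. SESN3, a known target of FoxO factors, stood at 56.2, 55.8 and 45.8 CPM in the controls and at 46.1, 52.6 and 49.0 CPM with minocycline. The groups overlapped in both genes. Their log2 fold changes were -0.17 ± 0.15 and -0.10 ± 0.14 (edgeR adjusted p = 0.828 and 0.879), and neither passed in any of 14 alternative settings.

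Per transcript length, SESN2 made up 48.8%, 57.2% and 58.1% of the summed sestrin level in the controls and 74.7%, 69.7% and 66.9% with minocycline. The share was thus higher in each minocycline library than in any control. The mean went from 54.7 ± 5.12% to 70.4 ± 3.98% (SD, n = 3 per group; two-sided exact permutation p = 0.1, the smallest that 3 against 3 can give, and 0.4 adjusted over the 4 ratios examined). This ratio needs no scaling between libraries, and it was 12.8 to 17.5 points higher with minocycline when each library was left out in turn. It was chosen after seeing the data and is built from the same SESN2 counts, so it is no separate evidence.

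EIF4EBP1, which encodes 4E-BP1, came after DDIT4 and SESN2 by fold change, and its groups overlapped. It stood at 93.5, 173 and 185 CPM in the controls and at 231, 177 and 276 CPM with minocycline. Minocycline replicate 2 lay between the 2 higher controls, and control replicate 1 was well below every other library. The log2 fold change was 0.60 ± 0.26 and did not pass (edgeR adjusted p = 0.820), and without control replicate 1 it was 0.35. It passed in 1 of 14 alternatives, with a surrogate variable in the model (log2 fold change 1.00, adjusted p = 3.00e-05), where 0.528% of genes passed. Within each group the order of the libraries was that of their ribosomal protein shares. Across groups it was not. Control replicate 1 had a share of 7.33%, and minocycline replicate 2, with a lower share of 7.26%, stood at 177 CPM. The part that this difference between libraries had in the result was not tested.

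EIF4EBP2, which encodes the related 4E-BP2, stood at 181, 204 and 194 CPM in the controls and at 203, 193 and 162 CPM with minocycline. The groups overlapped fully, and the log2 fold change was -0.05 ± 0.13 (edgeR adjusted p = 0.931), a sign that turned with library size scaling. EIF4EBP3, the remaining family member and not among the 10, was near the limit of detection at 0.58 ± 0.43 CPM in control and 0.84 ± 0.29 CPM in minocycline libraries (SD, n = 3 per group). EIF4E, the cap-binding protein that all of them hold, was at 38.9 ± 3.13 and 38.9 ± 4.80 CPM, a log2 fold change of 0.00 ± 0.15.

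The sum of EIF4EBP1 and EIF4EBP2 levels per length, divided by that of EIF4E, was 7.84, 15.7 and 16.1 in the controls and 22.3, 14.1 and 20.5 with minocycline. Values overlapped between the groups, and the means of 13.2 ± 4.66 and 19.0 ± 4.32 (SD, n = 3 per group) differed by about as much as the spread between libraries (two-sided exact permutation p = 0.3, and 0.4 adjusted over the 4 ratios). The ratio of EIF4EBP1 to EIF4EBP2 per length was 7.02 ± 2.07 in control and 11.4 ± 3.67 in minocycline libraries (SD, n = 3 per group; two-sided exact permutation p = 0.2, adjusted 0.4). The difference between the group means was 5.75 for the sum per EIF4E and 3.07 without control replicate 1, and it was 4.33 for EIF4EBP1 per EIF4EBP2 and 2.30 without minocycline replicate 3.

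DEPTOR, which binds and inhibits mTOR, was scarce, at 39, 58 and 62 raw counts in the controls and 88, 52 and 74 with minocycline. The groups overlapped, and its log2 fold change was 0.35 ± 0.29 (edgeR adjusted p = 0.828). The value was 0.13 without control replicate 1, 0.18 without minocycline replicate 1, 0.54 without minocycline replicate 2 and 0.68 with the surrogate variable, and it passed in none of 14 alternatives.

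TSC1, whose product hamartin stabilises the TSC complex, stood at 53.4, 38.6 and 34.7 CPM in the controls and at 47.8, 47.2 and 43.1 CPM with minocycline. Control replicate 1 was the highest of all 6 libraries and the other controls the lowest. TSC2, which encodes tuberin, the part of the complex that acts on Rheb, stood at 143, 157 and 164 CPM in the controls and at 163, 154 and 145 CPM with minocycline. The groups overlapped in both genes, and the log2 fold changes were 0.12 ± 0.17 and -0.01 ± 0.12 (edgeR adjusted p = 0.878 and 0.987). The signs of TSC1 and TSC2 turned in 2 and 5 of 14 alternatives. TSC1 per TSC2, by length, was 0.206 ± 0.063 in control and 0.223 ± 0.005 in minocycline libraries (SD, n = 3 per group; two-sided exact permutation p = 0.7), and the difference of 0.017 became -0.0072 without control replicate 3.

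**Figure D2:**
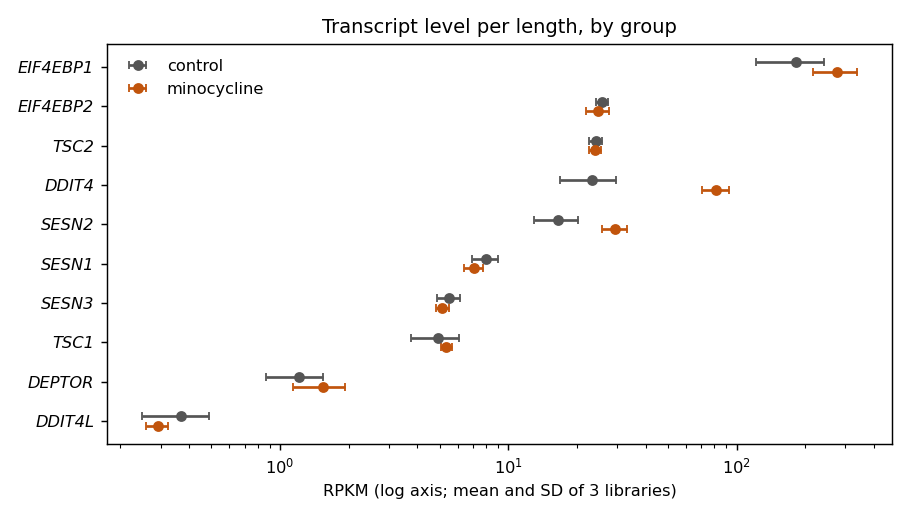
Mean level per transcript length (RPKM, log axis) with the SD of 3 libraries for each member in each group, ordered by the control level. DDIT4 goes from 23.3 RPKM, beside TSC2 and EIF4EBP2, to 81.7 RPKM, behind EIF4EBP1 alone.

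By level per length (RPKM, the CPM value per kilobase of the canonical transcript), EIF4EBP1 was the most abundant of the 10 transcripts in control cells at 182 ± 60.3 RPKM (SD, n = 3). EIF4EBP2, TSC2 and DDIT4 followed at 25.7 ± 1.55, 24.1 ± 1.64 and 23.3 ± 6.46 RPKM, which did not differ beyond their spread. SESN2 was at 16.6 ± 3.67 RPKM, below DDIT4 by about the SD of DDIT4. SESN1 was at 7.97 ± 1.01 RPKM, and SESN3 and TSC1, at 5.50 ± 0.62 and 4.91 ± 1.15 RPKM, lay within their spread. DEPTOR at 1.21 ± 0.34 and DDIT4L at 0.37 ± 0.12 RPKM were the lowest.

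With minocycline the order changed for DDIT4 and SESN2, and SESN3 and TSC1 changed places within their spread. DDIT4 stood at 81.7 ± 10.8 RPKM, after EIF4EBP1 at 276 ± 60.3 RPKM, and SESN2 came next at 29.4 ± 3.75 RPKM, above EIF4EBP2 at 24.8 ± 2.82 RPKM by more than either SD. Among 16757 tested genes with a transcript length, the level of DDIT4 exceeded that of 78.5% of genes in control and of 94.4% with minocycline. SESN2 exceeded 72.5% and 83.1%.

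**Figure D3:**
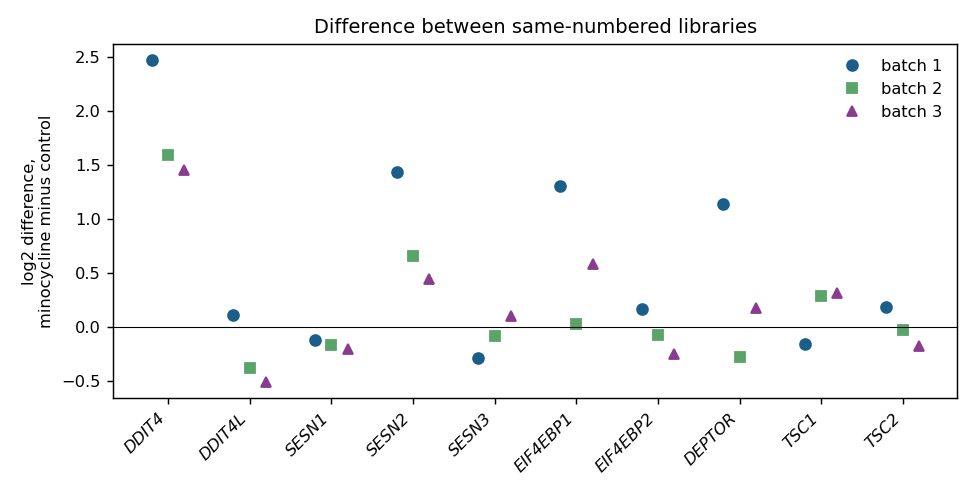
Difference in log2 CPM between the minocycline and the control library of the same batch number, for each member and batch. DDIT4 and SESN2 are above 0 in all 3 batches and both are highest in batch 1 (2.47 and 1.43). That batch pairs control replicate 1, the lowest control for both genes, with minocycline replicate 1, the highest minocycline library for both.

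Within batches 1, 2 and 3, each of 1 library per group, the log2 difference of DDIT4 was 2.47, 1.59 and 1.45. That of SESN2 was 1.43, 0.65 and 0.44, and that of EIF4EBP1 was 1.31, 0.03 and 0.58. The signs for DDIT4 and SESN2 follow from their separated groups. Batch 1 gave the widest difference in these 3 genes and in DEPTOR (1.14, against -0.28 and 0.17), and SESN1 was the one member below 0 in every batch (-0.13, -0.17 and -0.21).

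**Figure D4:**
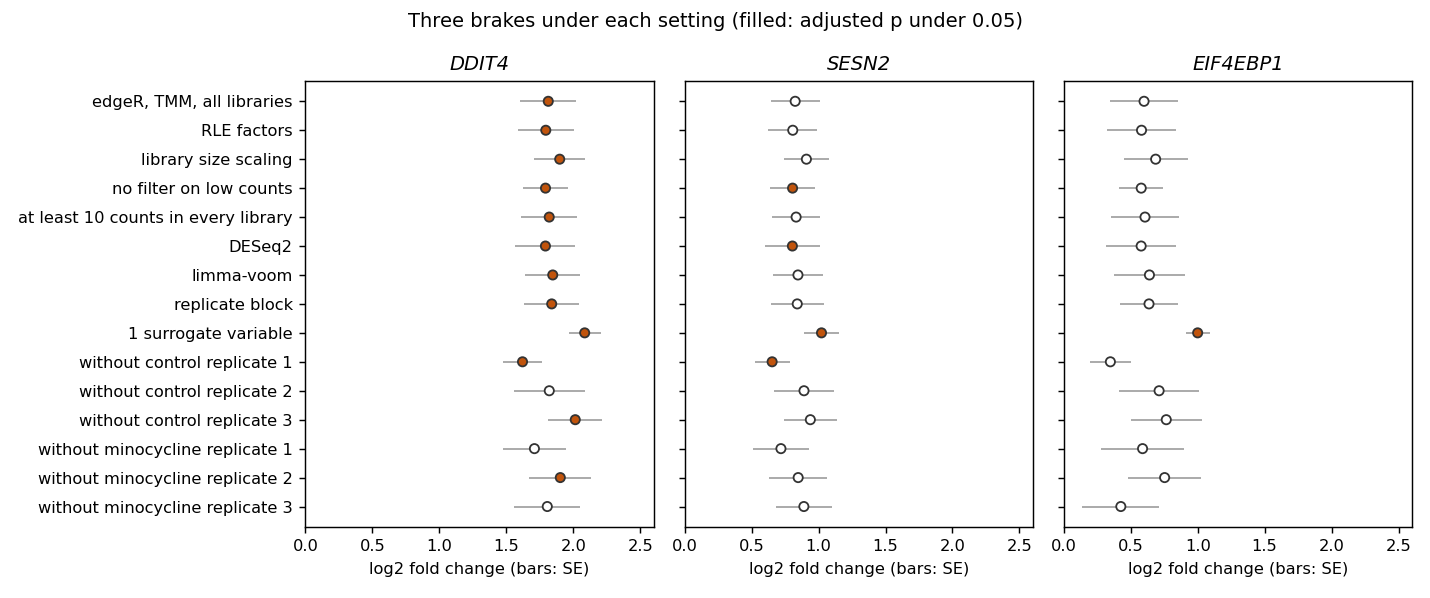
Log2 fold change of minocycline over control with its SE for DDIT4, SESN2 and EIF4EBP1 under each of 15 settings, with filled points where the adjusted p is under 0.05. DDIT4 stays between 1.62 and 2.09 and is filled in 11 of the 14 alternatives, SESN2 in 4 and EIF4EBP1 in 1.

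Of the 10 members, all of which passed the filter on low counts, 1 passed in the higher direction and 0 in the lower direction. Fitted levels were higher in 5 and lower in 5. The median log2 fold change was 0.06 over the members and 0.01 over all genes tested. The 3 members with an unadjusted p under 0.05 were DDIT4, SESN2 and EIF4EBP1, against 4.7% of all genes tested. Because the members were chosen with earlier results of these data known, this comparison is no test of the set.

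The rest of the pathway was described by 82 further genes in 5 role groups, of which 80 matched and 78 were tested. None passed in either direction with edgeR or with DESeq2, and 5 had an unadjusted p under 0.05. Their median log2 fold change was 0.01, with 40 fitted higher and 38 lower. Every minocycline library lay above every control for PDCD4, ATF4, CEBPB and MYC, and below every control for PRR5 and PRKAG2. Of all genes tested, 5.74% showed the higher arrangement and 3.56% the lower one. Without control replicate 1 the calls were 12 higher and 12 lower, in a fit where 17.9% of all genes passed.

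**Figure D5:**
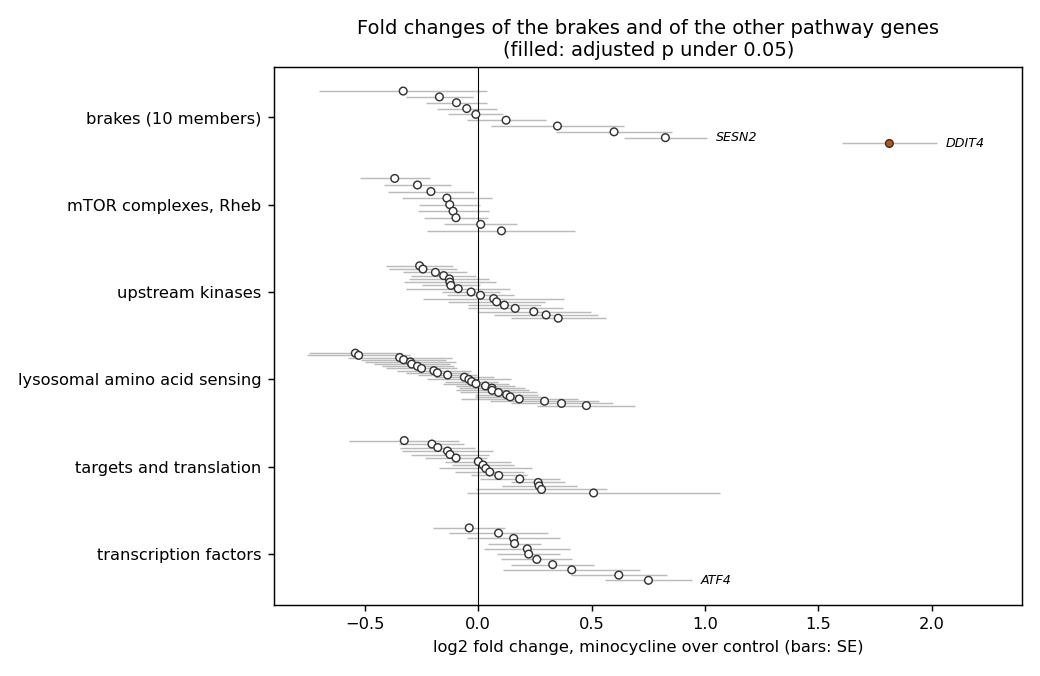
Log2 fold change of minocycline over control (horizontal axis, bars: SE) for the 10 members and for the 78 tested genes of the rest of the pathway by role. DDIT4 at 1.81 is the single filled point, and the other groups lie between -0.54 and 0.75.

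Among the mTOR complex genes and Rheb, 2 of 9 were fitted higher. PRR5, a subunit of mTORC2, had a log2 fold change of -0.37 ± 0.15, and AKT1S1, which encodes the mTORC1 inhibitor PRAS40, had -0.27 ± 0.15 (edgeR adjusted p = 0.820 for both). The groups of PRR5 did not overlap, with minocycline lower, and those of AKT1S1 overlapped. Without control replicate 1 both passed, at -0.48 and -0.39 (edgeR adjusted p = 0.0242 and 0.0295). Of 17 tested upstream kinases and their partners 8 were fitted higher, and the AMPK subunits PRKAG2 and PRKAB2 had values of -0.26 ± 0.15 and 0.35 ± 0.21. Every minocycline library lay below every control for PRKAG2, and the groups of PRKAB2 overlapped. PRKAB2 passed without control replicate 1 (0.61, edgeR adjusted p = 0.0144).

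Of 25 tested genes of lysosomal amino acid sensing 10 were fitted higher. LAMTOR5 and LAMTOR4, subunits of the Ragulator that anchors mTORC1 to the lysosome, had log2 fold changes of -0.54 ± 0.20 and -0.53 ± 0.23 (edgeR adjusted p = 0.820 for both). Without control replicate 1 both passed, at -0.71 and -0.74 (edgeR adjusted p = 0.00681 and 0.0051). With the surrogate variable they were at -0.28 and -0.19, and LAMTOR4 was at -0.31 without control replicate 3, and none of these values passed. LAMTOR5 stood at 52.5, 71.9 and 84.9 CPM in the controls and at 44.7, 40.2 and 58.9 CPM with minocycline. Its libraries overlapped, and within each group the order of the libraries was that of their ribosomal protein shares. The part of that difference between libraries in this result was not tested.

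Of 16 targets and translation factors 10 were fitted higher. PDCD4, an inhibitor of the helicase eIF4A, had a log2 fold change of 0.26 ± 0.12, with 54.7 to 58.6 CPM in control and 65.4 to 72.9 CPM in minocycline libraries, and EEF2K, the kinase that inhibits elongation factor 2, had 0.27 ± 0.16 (edgeR adjusted p = 0.820 for both). EIF4A1 was counted at 9.61 CPM on average beside 449 CPM for EIF4B, and its level is uncertain because exons of other annotated genes overlap its own.

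Of 11 transcription factors known to control the members, 10 were fitted higher, and none passed. Over all 17225 genes tested, 8975 were fitted higher. ATF4 stood at 528, 751 and 795 CPM in the controls and at 1204, 987 and 1298 CPM with minocycline, so its groups did not overlap. CEBPB, which encodes a partner of ATF4, stood at 28.7, 41.7 and 45.6 CPM and at 62.4, 45.7 and 70.1 CPM, and its lowest minocycline library barely exceeded its highest control. The log2 fold changes of ATF4 and CEBPB were 0.75 ± 0.19 and 0.62 ± 0.21 (edgeR adjusted p = 0.810 and 0.820). ATF4 passed in 3 of 14 alternatives, with no filter on low counts, with the surrogate variable and without control replicate 1 (log2 fold changes of 0.73, 0.98 and 0.59, adjusted p = 0.00829, 2.80e-05 and 0.0120 with edgeR). CEBPB passed in 1, with the surrogate variable (0.89, edgeR adjusted p = 0.00076). Over all 14 the adjusted p of both reached 1.00. HIF1A, which encodes a subunit of the hypoxia-inducible factor, was at 0.09 ± 0.22.

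The genes whose log2 CPM over the 6 libraries was most like that of a member were sought among 11685 genes with a mean of at least 5 CPM. For DDIT4 they were SLC37A4, the glucose-6-phosphate transporter, CARS1, the cysteinyl-tRNA synthetase, and CBS, which makes cystathionine (Pearson r = 0.998, 0.995 and 0.995). For SESN2 they were PSPH, the last enzyme of serine synthesis, CTH, which makes cysteine from cystathionine, and ADM2, a peptide hormone gene (0.989, 0.987 and 0.985). For EIF4EBP1 they were NUPR1, a stress-induced nuclear protein gene, EIF1, an initiation factor gene, and TES, which encodes the focal adhesion protein testin (0.995, 0.991 and 0.991). These are descriptions over 6 libraries that share the treatment contrast, chosen as the highest of many, and they carry no test.

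The patterns of these neighbours differed. SLC37A4 stood at 42.7, 45.3 and 46.4 CPM in the controls and at 56.4, 53.1 and 54.6 CPM with minocycline, with the order of libraries that DDIT4 showed in both groups and a much smaller log2 fold change of 0.29. NUPR1 stood at 6.20, 17.5 and 22.2 CPM in the controls and at 27.2, 17.3 and 38.9 CPM with minocycline, so that, as for EIF4EBP1, control replicate 1 was lowest and minocycline replicate 2 lay among the controls. None of these 9 genes passed in the edgeR test with all libraries. Over the 14 alternatives CARS1 passed in 5, CBS and ADM2 in 4 each, PSPH, CTH and NUPR1 in 2 each, EIF1 in 1, and SLC37A4 and TES in 0.

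In GRCh37 coordinates DDIT4 (ENSG00000168209.4) lies at chr10:74033678-74035794 and SESN2 (ENSG00000130766.4) at chr1:28586029-28609002, both on the plus strand, and EIF4EBP1 (ENSG00000187840.4) lies at chr8:37888052-37917883 on the plus strand. All 10 members are annotated as protein-coding, and no exon of these 3 genes or of EIF4EBP2 overlaps another annotated gene. Exons of TSC2 overlap those of PKD1 on the opposite strand. PKD1 had 1371 to 3375 counts, and because no source used here says whether counting used strand, reads of the overlap cannot be assigned with certainty. Of the other overlapping genes, those with a row had at most 24 counts in a library. The 5 pseudogene copies of EIF4EBP1 and EIF4EBP2 had at most 4 counts in a library.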

How the data were processed

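Total RNA of 6 HEK293 libraries (3 control, 3 minocycline) was prepared with a NEBNext Ultra II kit and sequenced in pairs, per the labels' protocols. The authors deposited whole-number counts per gene without normalization, and the build was hg19 per the submitters' processing notes. No source used here names the aligner, the counter or the strand setting. The members and lists were chosen with earlier results of these data known.

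Symbols came from a gene name table (55538 of 57820 identifiers matched). Genes were filtered with filterByExpr, scaled with TMM and tested with edgeR 4.0.16 (R 4.3.3), glmQLFit and glmQLFTest, with treatment as the single term, and p was adjusted by Benjamini-Hochberg over all 17225 genes at a threshold of 0.05. The test was checked on simulated data. Positions and lengths came from a GENCODE annotation on GRCh37, whose coordinates are those of hg19. RPKM used the canonical transcript, or the longest coding transcript where none was marked. Promoters were RefSeq sequences of GRCh38.p14. Total counts were 17303180 to 17835756. Counting error was not computed beside the spread between libraries. It weighs most on DDIT4L and DEPTOR, with 12 to 21 and 39 to 88 raw counts. Chi-square per degree of freedom between replicates was 6.19 to 70.7, so none was a repeat. The labels do not say whether replicates were separate cultures.

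Named genes were the members, per role group those past the threshold or else the 2 with the smallest unadjusted p, and the 3 most alike genes. HIF1A, MYC, EIF4EBP3, EIF4E, EIF4A1 and EIF4B were named outside this rule, after their values were seen. The labels give the replicate number as the batch. Deviations from the group means correlated across genes by -0.05, -0.29 and 0.30 in same-numbered pairs, so the pairing rests on the label. Alternatives were RLE and library size scaling, other filters, DESeq2 1.42.0, limma-voom (limma 3.58.1), the replicate block, 1 surrogate variable (sva 3.50.0) and each library left out. The ratios per length, and their repeats with all exons merged or a library left out, were chosen after seeing the data.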

Additional observations from a re-analysis of the deposited data

How the results depend on the processing

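The log2 fold change of DDIT4 ran from 1.62 to 2.09 over 14 alternatives, and its call was lost in 3, each with a library left out (adjusted p up to 0.223). With the replicate block DDIT4 showed 1.84 (adjusted p = 0.00302), SESN2 0.84 and EIF4EBP1 0.64, and no call of a member changed. SESN2 passed with no filter on low counts (0.81, adjusted p = 0.0013), with DESeq2 (0.80, adjusted p = 0.0497), with the surrogate variable (1.02, at 0.000896) and without control replicate 1 (0.65). EIF4EBP1 passed with 1 surrogate variable (1.00). The number of members called higher was 2 with no filter, 2 with DESeq2 and 3 with the surrogate variable, and 0 to 2 with a library left out. The genes called were 75 higher and 19 lower with no filter, 44 and 3 with DESeq2, and 83 and 8 with the surrogate variable, and 1 gene was lower with the replicate block. Without control replicate 1, 1681 were higher and 1473 lower. With any other library left out, 1 to 8 were higher and 0 to 1 lower. Pathway genes called higher were 1 with no filter and 3 with the surrogate variable. Without control replicate 1 the pathway calls were 12 in each direction, and with any other library left out they were 0. With each library left out, values were 1.62 to 2.01 for DDIT4, 0.65 to 0.94 for SESN2, -0.12 to 0.028 for EIF4EBP2, -0.0098 to 0.33 for TSC1 and -0.064 to 0.024 for TSC2. The sign turned for EIF4EBP2 with library size scaling (0.025) and without minocycline replicate 3, for TSC1 with the surrogate variable (-0.040) and without control replicate 3, and for TSC2 with library size scaling (0.066), with the surrogate variable (0.036), and without control replicate 2, control replicate 3 or minocycline replicate 3. The cause was not tested. With all exons merged, the difference in 4E-BP level per EIF4E was 11.1 in place of 5.75. Depth limits DDIT4L and DEPTOR.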
